A study of Mus musculus with 6 samples.

Results

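The genes described here belong to 3 stress responses of the cell, the unfolded protein response of the endoplasmic reticulum, the ATF4 and amino acid response, and the cytosolic heat-shock response. They were taken from a list of 36 genes, 16 in the endoplasmic reticulum branch, 14 in the ATF4 branch and 6 in the heat-shock branch. Each gene was measured by a probe set annotated to that symbol alone. This gave values for 35 of the 36 genes, out of 19938 genes measured in the series in this way. Hspa1b was the exception, because the 1 probe set that names it also names its near-identical neighbour Hspa1a.

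The samples were hearts of mice 6 months old (postnatal day 180), each measured on 1 Affymetrix Mouse Gene 1.0 ST array, 6 arrays in all. The tested genotype, Id cKO, is labelled Tie2Cre+Id1F/-Id3-/-, which joins Tie2Cre, a floxed and a null Id1 allele, and loss of both Id3 alleles. A further Id cKO heart was treated with mouse recombinant IGFBP3, and another was its untreated control. These 2 arrays are called the incubated pair, after the design text. The labels of the pair say only that they are conditional knockouts, and neither the dose nor the duration is stated in them. Id control was the group with 2 arrays, and their genotypes differ. Id control 1 is labelled Id1F/+Id3-/- and carries no Cre. Id control 2 is labelled Tie2Cre+Id1-/-Id3+/-. The remaining heart was WT. Tie2Cre is active in endothelial and blood cells, so most heart muscle cells keep their floxed alleles. The labels do not say whether animals were pooled. By the date codes of the arrays, whose meaning is not stated, Id cKO, Id control 2 and WT share a code, Id control 1 has its own, and the incubated pair has another. The question was what loss of Id1 and Id3, inhibitors of helix-loop-helix transcription factors, does to the heart, and whether IGFBP3, a secreted binder of insulin-like growth factors, alters it.

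All values are log2 levels, and differences are differences of log2 values. As deposited, array medians lay between 5.73 and 5.83 in the Id cKO, Id control and WT hearts, but at 4.45 and 4.51 on the treated and untreated arrays of the incubated pair. The pair was therefore set against the other arrays only after quantile normalization, which gives every array the same distribution. Whether the pair was summarised together with the other arrays is not stated, which limits every value of the pair against the other hearts. Id1 was at 6.48 in Id cKO, 8.11 and 6.41 in Id control, and 8.14 in WT, and Id3 at 4.69 in Id cKO, 5.02 and 7.32 in Id control, and 7.18 in WT, so both were low in Id cKO and each in the Id control heart labelled as lacking it. The Y-linked gene Eif2s3y was at 2.95 in Id cKO, 2.73 and 3.03 in Id control, and 7.98 in WT, while on the incubated pair it was at 7.07 with IGFBP3 and 6.20 without. Where Id cKO or Id control is compared with WT, sex and genotype cannot be told apart. Cardiomyocyte markers were high on all arrays of the first set, with summed levels of 97280 in Id cKO, 104200 and 101000 in Id control, and 98420 in WT.

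In the endoplasmic reticulum, chaperones such as the Hsp70 relative Hspa5 (BiP) fold newly made secreted and membrane proteins. When unfolded protein accumulates, the sensors IRE1, PERK and ATF6 signal to the nucleus, where ATF6 and spliced XBP1 bind elements in the promoters of chaperone genes. PERK, like the amino acid sensor GCN2, phosphorylates the initiation factor eIF2, which slows translation in general but favours that of ATF4. ATF4 in turn drives genes of amino acid synthesis and uptake. Heat-shock factor 1 acts on cytosolic chaperone genes when proteins misfold in the cytosol. In heart muscle, these responses are known from studies of pressure load, ischaemia and mitochondrial disease.

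The promoters of some of these genes hold the binding elements by which the branches are usually told apart. They are shown here as background to the branches. RefSeq promoter windows of GRCm38.p6 were available for 31 of the 36 genes, each 300 bases long. Manf, Atf6, Slc38a1, Slc7a5 and Hspa8 had none. The endoplasmic reticulum stress element (ERSE) was searched on both strands as CCAAT and CCACG with any 9 bases between them. It was found in 7 of 14 endoplasmic reticulum genes, in 0 of 12 ATF4 branch genes and in 0 of 5 heat-shock genes, against 0.119% of 32851 windows of all genes. In the lines below, the fixed letters of the element are in capitals and each sequence runs in the direction of the element, which for Calr and Creld2, and for the second Hsp90b1 site, is opposite to the gene.
Hspa5: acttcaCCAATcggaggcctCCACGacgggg
Calr: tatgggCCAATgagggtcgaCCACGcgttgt
Hsp90b1, first site: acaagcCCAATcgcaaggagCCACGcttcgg
Hsp90b1, second site: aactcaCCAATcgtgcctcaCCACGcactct
Canx: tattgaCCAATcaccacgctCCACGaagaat
Pdia6: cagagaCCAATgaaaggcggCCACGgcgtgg
Dnajc3: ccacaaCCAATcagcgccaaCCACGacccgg
Creld2: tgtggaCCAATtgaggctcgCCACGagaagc

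A second form, ERSE-II, was searched as ATTGG and CCACG with any 1 base between them, and shares CCACG with ERSE. It was found in Herpud1 and Dnajb11, 2 of 14 endoplasmic reticulum genes, against 0.0365% of all windows. The ATF4 type of element (CARE) was searched as TGATGNAA. It was found in Asns, Chac1 and Trib3, 3 of 12 ATF4 branch genes, and also in Herpud1, against 3.97% of all windows. Herpud1, the gene of the branch that was lowest in Id cKO relative to WT, thus held both an ERSE-II and a CARE match. The CARE matches of Herpud1, Chac1 and Trib3 lie on the strand opposite to the gene.
Herpud1, ERSE-II: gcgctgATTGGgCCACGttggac
Dnajb11, ERSE-II: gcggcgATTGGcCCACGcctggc
Herpud1, CARE: gcgggcTGATGcAAcccgcc
Chac1, CARE: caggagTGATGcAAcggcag
Trib3, CARE: cccggcTGATGtAAacctga
Asns, CARE: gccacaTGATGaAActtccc

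A heat-shock element with 3 units, GAA, TTC and GAA with any 2 bases between each, was found in Hsph1 alone among the genes described, against 0.603% of all windows. A pair of units, GAANNTTC, which is contained in that element, was found in 4 of 5 heat-shock genes (Hspa1a, Hspa1b, Hspb1 and Hsph1) and in Asns, where it overlaps the CARE match, against 7.86% of all windows. A match describes the letters only, and no match says only that these letters are not in the window. The full windows of 4 genes described below follow, on the strand of the gene, with all matches in capitals. They cover chr8:94386179-94386478 (+ strand) for Herpud1, chr2:34771840-34772139 (+ strand) for Hspa5, chr6:7693160-7693459 (- strand) for Asns and chr17:34972107-34972406 (- strand) for Hspa1a. The window of Hspa1b differs from that of Hspa1a at 4 of 300 positions.
Herpud1: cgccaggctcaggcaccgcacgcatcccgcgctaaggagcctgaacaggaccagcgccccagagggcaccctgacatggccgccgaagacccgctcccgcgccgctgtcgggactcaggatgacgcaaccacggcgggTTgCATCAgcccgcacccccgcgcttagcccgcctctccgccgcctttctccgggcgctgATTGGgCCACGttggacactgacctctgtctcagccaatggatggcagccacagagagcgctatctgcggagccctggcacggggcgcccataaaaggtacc
Hspa5: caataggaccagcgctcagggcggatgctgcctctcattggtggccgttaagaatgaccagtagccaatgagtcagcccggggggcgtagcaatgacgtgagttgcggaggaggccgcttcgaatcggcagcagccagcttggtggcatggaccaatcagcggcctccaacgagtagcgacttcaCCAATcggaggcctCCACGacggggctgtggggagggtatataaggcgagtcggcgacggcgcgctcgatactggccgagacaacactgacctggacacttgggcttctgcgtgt
Asns: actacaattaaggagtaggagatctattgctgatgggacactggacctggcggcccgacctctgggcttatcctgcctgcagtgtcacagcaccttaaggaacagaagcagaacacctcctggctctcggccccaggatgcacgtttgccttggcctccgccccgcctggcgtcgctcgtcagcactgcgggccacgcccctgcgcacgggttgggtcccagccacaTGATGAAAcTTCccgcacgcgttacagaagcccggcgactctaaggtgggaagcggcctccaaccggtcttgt
Hspa1a: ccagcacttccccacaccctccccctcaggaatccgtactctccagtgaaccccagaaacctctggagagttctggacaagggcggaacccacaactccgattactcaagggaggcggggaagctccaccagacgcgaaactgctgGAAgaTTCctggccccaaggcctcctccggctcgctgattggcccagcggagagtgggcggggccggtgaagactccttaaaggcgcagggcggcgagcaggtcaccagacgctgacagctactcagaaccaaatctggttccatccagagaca

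Compared with the WT heart, the Id cKO heart had lower levels of most endoplasmic reticulum chaperone genes and higher levels of a group of ATF4-linked genes of amino acid supply, while heat-shock genes lay close together. Herpud1 was 1.47 lower in Id cKO. The amino acid transporter genes Slc38a1, Slc7a5 and Slc38a2 were 2.08, 1.01 and 0.97 higher. The asparagine synthetase gene Asns was 1.34 higher. Genes were compared where the higher value was at least 6 on the log2 scale, which left 34 of the 35 measured genes and removed Psat1. Each group here is 1 array, so these differences have no replicate check and no test. In samples of whole heart, fewer cells of a type and less RNA per cell cannot be told apart.

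**Figure D1:**
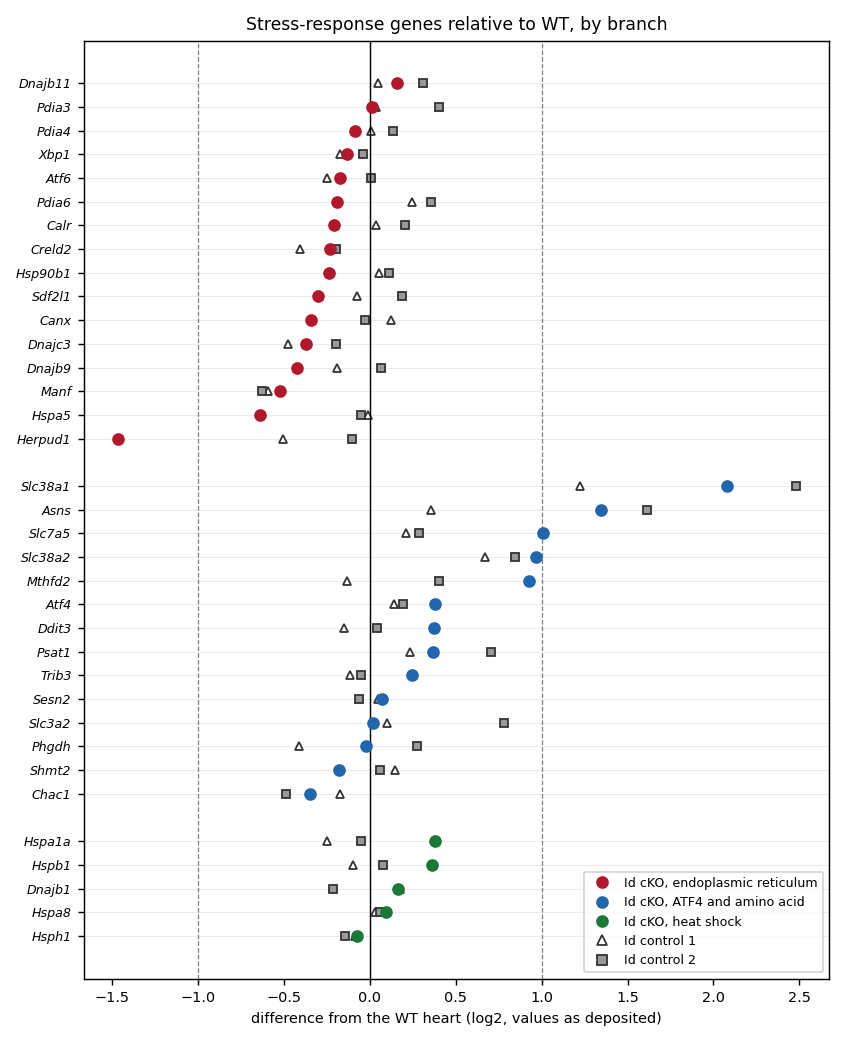
Difference from the WT heart (log2, values as deposited) for the 35 measured genes, grouped by branch, with Id cKO as filled circles, Id control 1 as open triangles and Id control 2 as grey squares. Dashed lines mark 2-fold; Herpud1 lies at -1.47 in Id cKO, and Slc38a1 and Asns lie beyond 2-fold in both Id cKO and Id control 2.

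In the endoplasmic reticulum branch, 14 of 16 genes lay lower in the Id cKO heart and 2 higher, with a median difference from WT of -0.23. Over all 11478 compared genes the median was 0.0045, and 49.2% were lower. Herpud1 alone was at least 2-fold lower, where 0.967% of all compared genes were, and none was 2-fold higher. At 1.5-fold Hspa5 joined it, 2 of 16 genes against 3.35% of all, although centring the arrays on their medians brought Hspa5 to -0.58, below that limit. Herpud1 (probe set 10574087) encodes a membrane protein of the machinery that removes misfolded proteins from the endoplasmic reticulum. It was at 10.30 in Id cKO, 11.26 and 11.66 in Id control, and 11.76 in WT. The single Id cKO heart thus lay below each of the other 3 hearts, as it did for 31.1% of all genes. Hspa5 (probe set 10471586) was at 10.69 in Id cKO, 11.32 and 11.28 in Id control, and 11.33 in WT. The other 3 hearts lay within a narrow range for this gene, and Id cKO lay below it by 0.59 or more.

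The other chaperones and folding enzymes of the branch lay closer together. Canx, which encodes the lectin chaperone calnexin, was at 11.14 in Id cKO, 11.60 and 11.45 in Id control, and 11.48 in WT. Hsp90b1, the endoplasmic reticulum member of the Hsp90 family, was at 10.93 in Id cKO, 11.22 and 11.28 in Id control, and 11.17 in WT. For both genes Id cKO was again the lowest of the 4 hearts. It was also the lowest for Calr, Pdia4, Pdia6, Dnajb9 and Sdf2l1, so that Id cKO was lowest for 9 of 16 genes (56.2%), against 31.1% of 11708 genes with a value of at least 6 in any of the 4 hearts. Calr encodes calreticulin, Pdia4 and Pdia6 are disulphide isomerases, and Dnajb9 and Sdf2l1 assist Hspa5.

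Manf and Dnajc3 did not share that order. Manf, a secreted protein that is retained by Hspa5, was at 7.14 in Id cKO, 7.07 and 7.04 in Id control, and 7.67 in WT, so the WT heart stood above all the others. Dnajc3, which encodes an inhibitor of PERK and co-chaperone of Hspa5, was at 9.32 in Id cKO, 9.21 and 9.49 in Id control, and 9.69 in WT. Id cKO lay between the Id control hearts. The transcription factor genes of the branch differed little. Xbp1 was 0.13 lower and Atf6 0.18 lower in Id cKO than in WT, and for both Id cKO lay between the Id control arrays. The array reads total Xbp1 RNA here and not its splicing.

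Among the 7 genes with an ERSE match, all 7 were lower in Id cKO than in WT, where 49.2% of all compared genes were. These 7 lay between -0.64 and -0.19, with a median of -0.24. Among the 7 genes of the branch whose window held none, 5 were lower, between -1.47 and 0.16, with a median of -0.13. Of these, 5 with an ERSE match and 4 without one were lowest in Id cKO of the 4 hearts, where 31.1% of all genes were. The ranges overlapped, and Herpud1, with the lowest value, is in the group without ERSE. That group is not free of related elements, since Herpud1 and Dnajb11 in it hold ERSE-II.

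In the ATF4 branch, 10 of 13 compared genes lay higher in the Id cKO heart and 3 lower, with a median difference from WT of 0.37, where 50.8% of all compared genes were higher. Slc38a1, Asns and Slc7a5 were at least 2-fold higher, 3 of 13 against 2.2% of all compared genes, and none was 2-fold lower. Slc7a5 sits at that limit, at 0.99 after quantile normalization, and Slc38a2 passed it after median centring, at 1.03. With Slc38a2 and Mthfd2, 5 of 13 genes were at least 1.5-fold higher, against 6.94% of all. Slc38a1 (probe set 10431874), a sodium-coupled transporter of glutamine and other neutral amino acids, was at 8.68 in Id cKO, 7.83 and 9.08 in Id control, and 6.60 in WT. Asns, which makes asparagine from aspartate and glutamine, was at 7.57 in Id cKO, 6.58 and 7.84 in Id control, and 6.22 in WT. For both genes WT was the lowest heart, Id cKO lay between the Id control arrays, and Id control 2 was the highest heart.

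Slc7a5 and Mthfd2 had another pattern. Slc7a5, which encodes the light chain of the large neutral amino acid transporter LAT1, was at 8.24 in Id cKO, 7.44 and 7.52 in Id control, and 7.23 in WT. Mthfd2, a mitochondrial enzyme of one-carbon metabolism, was at 7.24 in Id cKO, 6.18 and 6.72 in Id control, and 6.31 in WT. For these genes the Id cKO heart stood above the other 3. Slc38a2, a relative of Slc38a1 known to respond to amino acid starvation, was at 11.22 in Id cKO, 10.92 and 11.09 in Id control, and 10.25 in WT. Here the WT heart stood apart below the other 3.

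The regulators of the branch lay within a narrower range. Atf4 was at 8.15 in Id cKO, 7.91 and 7.96 in Id control, and 7.77 in WT. Ddit3, which encodes the transcription factor CHOP, was at 7.21 in Id cKO, 6.69 and 6.88 in Id control, and 6.84 in WT. Trib3, a pseudokinase gene induced by ATF4 and CHOP, was at 6.88 in Id cKO, 6.52 and 6.58 in Id control, and 6.63 in WT. All 3 were highest in Id cKO. With Slc7a5, Mthfd2, Slc38a2 and Sesn2 this made 7 of 14 genes, against 26.0% of all genes.

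The remaining genes of the branch did not follow these. Chac1, which encodes an enzyme that degrades glutathione and is a target of ATF4, was at 6.80 in Id cKO, 6.98 and 6.66 in Id control, and 7.15 in WT. Slc3a2, the heavy chain that pairs with Slc7a5, was at 9.81 in Id cKO, 9.89 and 10.57 in Id control, and 9.79 in WT, so Id control 2 stood apart above the others. Phgdh, the first enzyme of serine synthesis, and Shmt2, which uses serine in the mitochondrion, were 0.02 and 0.18 lower in Id cKO than in WT. Sesn2, a sensor of leucine, was 0.07 higher.

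Of the 5 measured heat-shock genes, 4 lay higher in the Id cKO heart and 1 lower, with a median difference from WT of 0.17, where 50.8% of all genes were higher. None was at least 1.5-fold apart, where 6.94% of all were higher and 3.35% lower. Hspa1a, the inducible cytosolic Hsp70, was at 6.97 in Id cKO, 6.34 and 6.54 in Id control, and 6.59 in WT. Hspb1, the small heat-shock protein Hsp27, was at 10.74 in Id cKO, 10.28 and 10.45 in Id control, and 10.38 in WT. Both were highest in Id cKO. Dnajb1, a co-chaperone of Hsp70, was 0.17 higher in Id cKO than in WT, Hspa8, the constitutive cytosolic Hsp70, was 0.09 higher, and Hsph1, a nucleotide exchange factor for Hsp70, was 0.07 lower.

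Marker genes of other cell types differed between the same hearts. The summed level of 7 atrial markers was 17230 in Id cKO, 2967 and 27430 in Id control, and 1684 in WT, which is the order of Slc38a1 and Asns over these hearts. That order was also found for Psat1 and Dnajb11, 4 of 35 genes, and for 5.56% of all genes. The atrial sum of Id cKO was mostly Nppa, at 14.03. The atrial light chain gene Myl7 was at 5.38 in Id cKO, 5.31 and 12.27 in Id control, and 5.28 in WT, so it was high in Id control 2 alone. The sum of 10 fibroblast markers had the same order, with 8681 in Id cKO, 7470 and 13430 in Id control, and 6315 in WT. By gene this list was split, with 5 markers above the WT level in the Id cKO heart and 5 below it. Col3a1 (1.51) and Mfap5 (1.34) were among those above, and Dpt (-0.64) and Fbln1 (-0.44) among those below. The fibroblast sum therefore does not speak for all of its markers. Endothelial markers summed to 8729 in Id cKO, 6397 and 6188 in Id control, and 6014 in WT. The sum of 6 blood and platelet markers was 529 in Id cKO, 664.5 and 617.4 in Id control, and 1517 in WT. The part of these cells in the differences above was not tested.

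Wider gene lists of the same pathways were counted in the same way. Over all compared genes, 50.8% were higher, 49.2% lower and 2.2% at least 2-fold higher. Of 30 compared genes of endoplasmic reticulum sensors, degradation, transport and folding, 20 lay higher in the Id cKO heart and 10 lower, with a median of 0.13 and none 2-fold apart. Of 32 further genes of the ATF4 response, 20 were higher and 12 lower, with a median of 0.05. At 1.5-fold, 2 of these were higher and 6 lower, against 6.94% and 3.35% of all compared genes. Atf3, a stress transcription factor, was 2-fold higher there, at 7.91 in Id cKO, 7.23 and 7.51 in Id control, and 6.70 in WT. Of 23 further cytosolic chaperone genes, 16 were higher and 7 lower, with a median of 0.06 and none 2-fold apart.

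The comparison of Id control with WT shares the WT array with the comparison above, so differences of both from WT are not independent. In Id control the endoplasmic reticulum branch lay close to WT, and the transporters Slc38a1 and Slc38a2 lay above it on both arrays. Slc38a1 was 1.22 and 2.48 above WT in Id control 1 and 2, and Slc38a2 was 0.67 and 0.84 above. Manf was 0.59 and 0.63 below. Slc38a1 was the 1 gene of 34 that was at least 2-fold higher on both arrays, where 0.105% of 11407 compared genes were, and no gene was 2-fold lower, where 0.0964% were. At 1.5-fold, Slc38a1 and Slc38a2 were higher on both arrays, where 0.938% of all compared genes were, and Manf was lower, where 0.43% were. After median centring Manf no longer reached that limit, at -0.51 on the nearer array.

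The branch medians between Id control and WT were 0.01 for the endoplasmic reticulum, 0.14 for ATF4 and -0.02 for heat shock, against 0.05 over all genes. In the endoplasmic reticulum branch 6 genes were higher and 6 lower on both arrays, in the ATF4 branch 7 and 2, and in the heat-shock branch 1 and 2, where 45.5% of all genes were higher and 28.5% lower on both. The endoplasmic reticulum median changed its sign when arrays were quantile normalized (-0.04) and the heat-shock median when they were centred on their medians (0.07). In the limma fit, 0 of 34 genes passed an adjusted p of 0.05, and 3 had an unadjusted p under 0.05, namely Slc38a2, Manf and Slc38a1, where 7.26% of all compared genes did. Slc38a2 differed by 0.76 ± 0.15 (limma SE), adjusted p = 0.629, and Slc38a1 by 1.85 ± 0.54, adjusted p = 0.629. The fit assumes that lone arrays vary like the Id control pair, which has 1 residual degree of freedom and differs in genotype. Asns illustrates that spread, at 0.36 above WT in Id control 1 and 1.62 above in Id control 2.

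**Figure D2:**
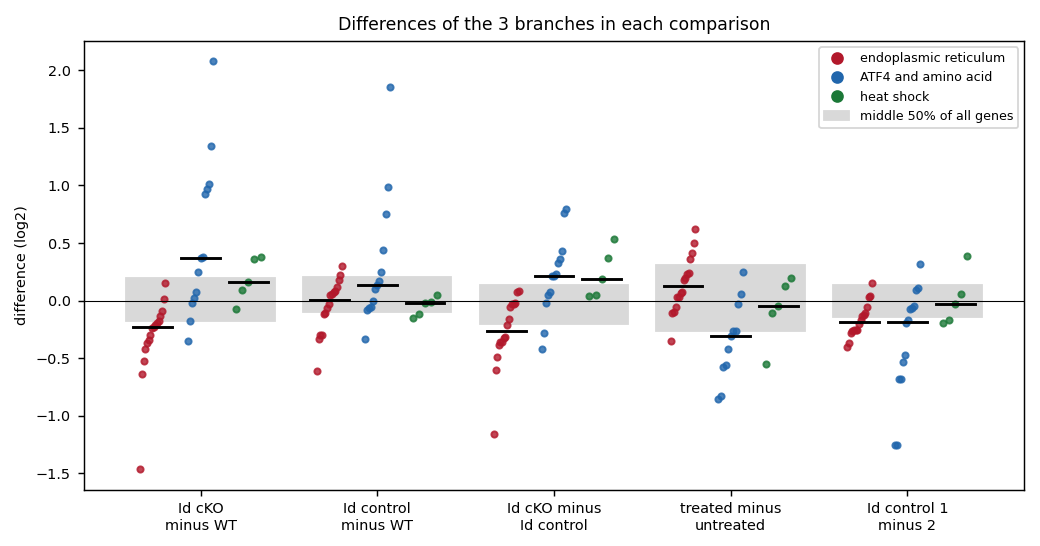
Differences (log2) of the compared genes in the endoplasmic reticulum (red), ATF4 and amino acid (blue) and heat-shock (green) branches for 5 comparisons, with black lines at the medians and grey boxes over the middle 50% of all compared genes. The endoplasmic reticulum median is -0.23 for Id cKO minus WT and -0.26 for Id cKO minus Id control, and the ATF4 median is -0.31 for IGFBP3-treated minus untreated.

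Between Id cKO and Id control, the chaperone genes Herpud1 and Hspa5 were lower in Id cKO and Slc7a5 and Mthfd2 higher, on both Id control arrays. Slc38a1 and Asns, by contrast, lay between the 2 Id control arrays. Herpud1 was 0.96 below Id control 1 and 1.36 below Id control 2. Hspa5 was 0.63 and 0.59 below. Slc7a5 was 0.80 and 0.72 above, and Mthfd2 was 1.06 and 0.52 above. No gene was at least 2-fold apart from both arrays in the same direction, where 0.698% of 11310 compared genes were higher and 0.424% lower.

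At 1.5-fold from both arrays, Slc7a5 was higher, 1 of 34 genes against 2.63% of all compared genes, and Herpud1 and Hspa5 were lower, 2 of 34 against 2.37%. Hspa5 did not reach that limit after quantile normalization, at -0.57 from the nearer Id control array. In the limma fit, 0 of 34 genes passed an adjusted p of 0.05, against 0.0177% of all compared genes, and 6 had an unadjusted p under 0.05, against 13.5% of all. Slc7a5 differed by 0.76 ± 0.14 (limma SE), adjusted p = 0.233. Herpud1 differed by -1.16 ± 0.22, adjusted p = 0.233, and Hspa5 by -0.61 ± 0.14, adjusted p = 0.249. The other 3 were Pdia6 (-0.49 ± 0.14), Hspa1a (0.53 ± 0.16) and Mthfd2 (0.79 ± 0.26), with adjusted p in limma from 0.318 to 0.342. A p above the limit does not show that these genes were alike.

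In the endoplasmic reticulum branch, 10 of 16 genes were below both Id control arrays and 1, Manf, above both, with a median of -0.26, where 41.9% of all compared genes were below both and the median was -0.03. In the ATF4 branch, 7 of 13 compared genes were above both and 2, Slc3a2 and Shmt2, below both, with a median of 0.21, where 33.5% of all genes were above both. Of the 5 heat-shock genes 4 were above both, with a median of 0.18. The wider lists had medians of -0.06 over 30 endoplasmic reticulum genes, -0.0034 over 33 ATF4 genes and 0.12 over 23 cytosolic chaperone genes. None of their members was 2-fold apart from both arrays.

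Id control 1 and 2 give the spread within the group. All 16 endoplasmic reticulum genes were less than 1.5-fold apart between them, from -0.40 (Herpud1) to 0.15 (Canx), with a median of -0.19 for Id control 1 minus 2. In the ATF4 branch, Asns (-1.26) and Slc38a1 (-1.25) were at least 2-fold lower in Id control 1, 2 of 14 genes against 1.04% of all compared genes. Phgdh (-0.69) and Slc3a2 (-0.68) were at least 1.5-fold lower, which made 4 of 14 genes against 3.45% of all. By the probe sets used, none of the 5 heat-shock genes was 1.5-fold apart, but another probe set of Hspa8 was 1.03 higher in Id control 1. Of the genes at least 1.5-fold apart between Id cKO and WT, Herpud1, Hspa5, Slc7a5, Mthfd2, Slc38a2 and Slc38a1 differed by more than this spread. Asns did so by little (1.34 against 1.26). Genes with smaller differences from WT exceeded it too, such as Manf (-0.52 against 0.03) and Atf4 (0.38 against -0.05). The share of all genes that did was not counted, and the spread is 1 difference between arrays of unlike genotype and date code.

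Between the IGFBP3-treated and the untreated Id cKO heart, the ATF4 branch was lower in the treated heart for most genes, with the regulator Atf4 among them, while most endoplasmic reticulum genes lay slightly higher. Chac1 was 0.86 lower, Slc7a5 0.83 lower and Atf4 0.58 lower. Dnajc3 was 0.62 higher and Hsp90b1 0.50 higher. No gene of the 3 branches was 2-fold apart, where 0.567% of 10046 compared genes were higher and 0.677% lower. Each heart is 1 array, with no test, and for this pair the minimum level of 6 was applied on the quantile-normalized scale.

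**Figure D3:**
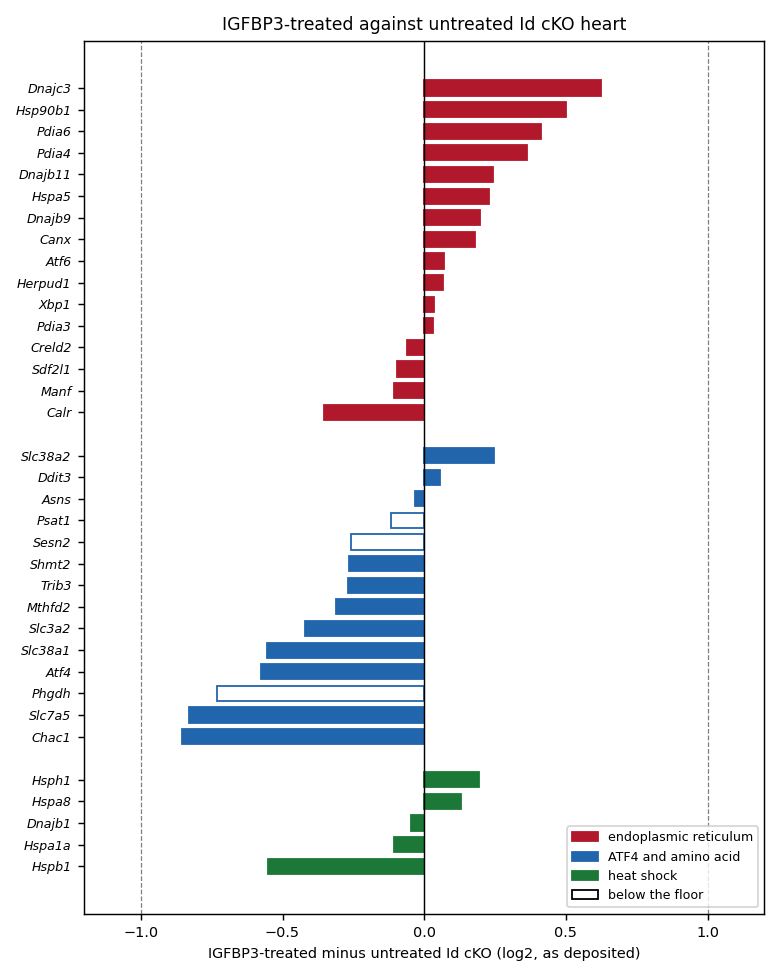
IGFBP3-treated minus untreated Id cKO heart (log2, as deposited) for the 35 measured genes, by branch, with open bars for genes below the minimum level and dashed lines at 2-fold. Chac1 (-0.86) and Slc7a5 (-0.83) are the lowest compared genes and Dnajc3 (0.62) the highest.

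In the ATF4 branch, 9 of 11 compared genes were lower in the treated heart and 2 higher, with a median of -0.31. Over all compared genes 47.1% were lower and the median was 0.02. Chac1 was at 5.70 in the treated heart and 6.56 in the untreated heart. Slc7a5 was at 6.79 in the treated heart, against 7.62 in the untreated heart, and its partner Slc3a2 at 9.01, against 9.43. Atf4 was at 6.68 in the treated heart and 7.25 in the untreated one. Asns (-0.03) and Ddit3 (0.05) hardly differed, and Slc38a2 was 0.24 higher. At 1.5-fold, Chac1 and Slc7a5 were lower, 2 of 11 genes against 6.35% of all compared genes, and after quantile normalization Atf4 (-0.62) was too.

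In the endoplasmic reticulum branch, 12 of 16 genes were higher in the treated heart and 4 lower, with a median of 0.12, where 52.0% of all genes were higher. Dnajc3 was at 8.39 in the treated heart and 7.77 in the untreated heart, and it was the 1 gene at least 1.5-fold higher, where 7.31% of all compared genes were. After quantile normalization it was at 0.58, short of that limit. Hsp90b1 was at 9.77 and Pdia6 at 8.25 in the treated heart, against 9.27 and 7.84 in the untreated heart. Calr ran the other way, at 9.26 with IGFBP3 and 9.61 without. Herpud1 was at 9.39 with IGFBP3 and 9.32 without, a difference of 0.07.

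The heat-shock genes had a median of -0.05, which became 0.02 when arrays were centred on their medians. Hspb1 was 0.55 lower in the treated heart, at 10.25 against 10.80 in the untreated heart, and Hspa1a 0.11 lower, at 9.55 against 9.66. After quantile normalization Hspb1 passed 1.5-fold, at -0.59. The wider lists had medians of 0.08, 0.11 and 0.09 for the endoplasmic reticulum, ATF4 and cytosolic chaperone genes, and no member was 2-fold apart. Of 10 immediate early genes 8 were lower in the treated heart, where 47.1% of all compared genes were. The summed level of the 10 was 2349 in the treated heart and 3150 in the untreated heart. The macrophage markers were lower in 8 of 10 cases, with sums of 1793 and 2299 in the treated and the untreated heart. Their part in the lower ATF4 branch values was not tested.

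Set against the other 4 hearts on the quantile-normalized scale, the incubated pair had far higher Hspa1a. Hspa1a was at 10.34 with IGFBP3 and 10.50 without, against 6.56 in Id cKO, 5.95 and 6.14 in Id control, and 6.18 in WT. The lower array of the pair thus stood 3.78 above the highest of the other 4, or 13.7-fold. By the mean difference of 4.21, Hspa1a ranked 5 among 10769 compared genes. The same gene was not among those apart between Id cKO and WT at 1.5-fold. The pair differs from the other hearts in incubation and date code together, and these cannot be told apart. Eif2s3y was high on the pair and in WT but low in Id cKO and Id control. Against Id cKO and Id control, sex therefore cannot be told apart from incubation and date code either.

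**Figure D4:**
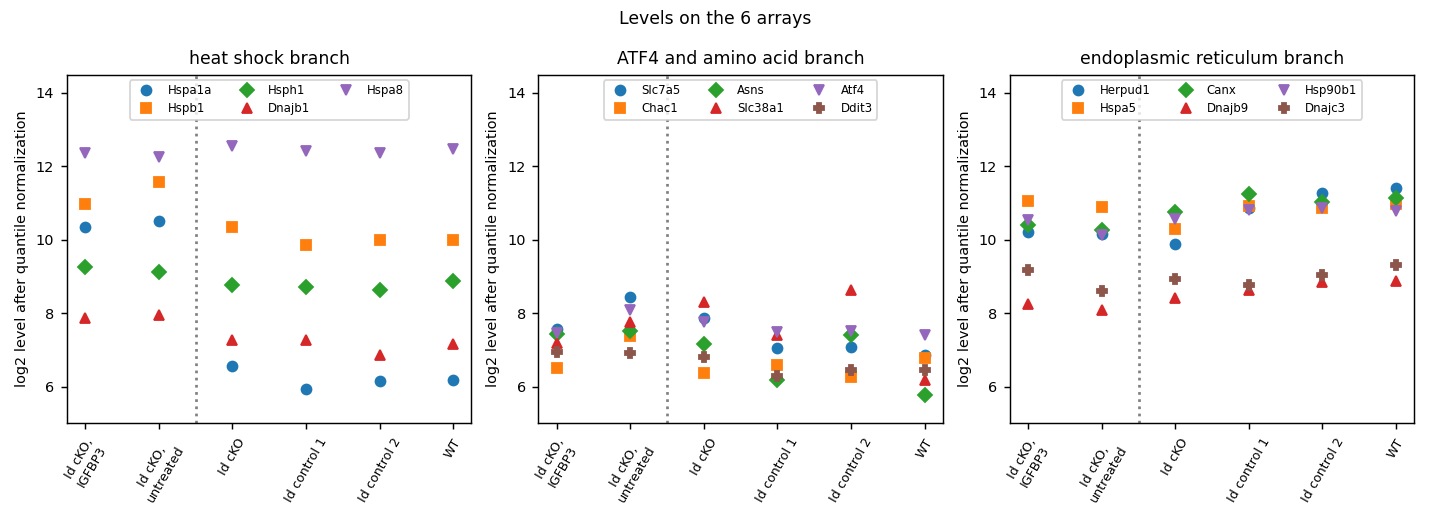
Log2 levels after quantile normalization on the 6 arrays, with the incubated pair left of the dotted line and Id cKO, Id control and WT right of it, for the 5 heat-shock genes and 6 genes from each of the other branches. Hspa1a lies at 10.34 and 10.50 on the pair and between 5.95 and 6.56 on the other arrays.

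Of the 5 heat-shock genes, 4 lay above all other hearts on both arrays of the pair, where 21.6% of all compared genes did, and Hspa1a did so by at least 2-fold, where 1.41% of all genes did. No gene of the 3 branches was 2-fold below all 4, where 0.381% of all genes were. Hspb1 was at 10.98 and 11.57 on the treated and untreated arrays, against 10.35 in Id cKO, 9.86 and 9.99 in Id control, and 10.00 in WT. Dnajb1 was at 7.87 and 7.95, against 7.27 in Id cKO, 7.27 and 6.87 in Id control, and 7.15 in WT. Hsph1 was at 9.26 and 9.12 on the pair, against values from 8.63 to 8.87 in the other hearts. Hspa8 was the exception, at 12.36 and 12.25 on the pair and from 12.36 to 12.55 in the others. The constitutive Hsp70 thus did not share the position of the inducible Hsp70.

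In the endoplasmic reticulum branch, 0 of 16 genes lay above all other hearts on both arrays of the pair and 5 below, where 27.1% of all compared genes were below. These were Hsp90b1, Canx, Pdia3, Dnajb9 and Atf6. Herpud1 was at 10.20 with IGFBP3 and 10.16 without, 9.88 in Id cKO, 10.86 and 11.27 in Id control, and 11.40 in WT. All 3 hearts labelled as conditional knockouts were lower in Herpud1 than the 3 that were not. Hspa5 did not repeat this, at 11.05 and 10.90 on the pair, against 10.30 in Id cKO, 10.93 and 10.87 in Id control, and 10.96 in WT. The share of all genes with such a split was not counted. Most of the conditional knockout hearts are the incubated pair, which has its own date code.

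In the ATF4 branch, 2 of 11 compared genes, Ddit3 and Asns, lay above all other hearts on both arrays, against 21.6% of all genes, and Shmt2 lay below, against 27.1%. The gap was 0.10 for Ddit3 and 0.03 for Asns. Asns was at 7.43 and 7.51 on the treated and untreated arrays, against 7.17 in Id cKO, 6.18 and 7.40 in Id control, and 5.78 in WT. Slc7a5 was at 7.57 and 8.45 on the pair, against 7.86 in Id cKO, 7.04 and 7.08 in Id control, and 6.87 in WT. For Slc7a5 the 3 conditional knockout hearts were thus the highest of the 6, with the treated heart the lowest of the 3. As for Herpud1, the share of all genes with such a split was not counted. Slc38a1 was at 7.19 and 7.77 on the pair, inside the range of the other 4 hearts.

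The untreated heart of the pair and the Id cKO heart have the same labelled condition apart from incubation. They also differ in date code and in sex-linked genes. Eif2s3y was at 7.01 in the untreated heart and 2.64 in Id cKO, and Xist at 3.92 and 8.23 (quantile normalized). Incubation, date code and sex cannot be told apart between these hearts. Between them (untreated minus Id cKO, quantile normalized), the medians were -0.05 for the endoplasmic reticulum branch, 0.10 for ATF4 and 0.68 for heat shock, against -0.01 over 10239 compared genes. In the 3 branches 18 of 32 compared genes were higher and 14 lower, where 49.1% of all genes were higher and 50.9% lower. Hspa1a (3.94) and Hspb1 (1.22) were 2-fold higher, 2 of 32 compared genes against 4.97% of all, and no gene was 2-fold lower, where 3.44% were. Chac1 (1.00) lay just short of 2-fold and passed it after median centring (1.01). With Chac1, Slc3a2 (0.85), Dnajb1 (0.68), Hspa5 (0.60) and Slc7a5 (0.60), 7 genes were at least 1.5-fold higher, against 13.9% of all. With its probe sets averaged, Slc38a1 was at least 1.5-fold lower, at -0.63. The endoplasmic reticulum median was 0.03 after cyclic loess, with the sign changed.

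Genes of the wider lists were apart between these hearts as well. Atf3 (2.27), the glutamine transporter gene Slc1a5 (1.86), Ddit4 (1.39), an inhibitor of mTORC1, and Ppp1r15a (1.38), which directs the dephosphorylation of eIF2, were 2-fold higher in the untreated incubated heart, while Eif2ak2 (-1.08), a kinase of eIF2, was 2-fold lower. Syvn1 (1.05), a ubiquitin ligase of the endoplasmic reticulum, was 2-fold higher too. Of the wider ATF4 list, 4 of 31 compared genes were thus 2-fold higher and 1 lower. Syvn1 was 1 of 31 compared genes of the wider endoplasmic reticulum list. Over all compared genes, 4.97% were 2-fold higher and 3.44% lower. Of 23 further cytosolic chaperone genes 17 were lower, with a median of -0.42, where 50.9% of all compared genes were lower. Fkbp4 (-1.23), a co-chaperone of Hsp90, and Hsf2 (-1.13) were 2-fold lower, 2 of these 23 genes. Cardiomyocyte markers were lower with them, in 9 of 10 cases with a median of -0.31, and their sums were 70500 and 65870 on the treated and untreated arrays of the pair, against 84320 to 93350 in the other hearts. Their part in the lower chaperone values was not tested.

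Immediate early genes were also high on the pair. All 10 of them lay above the other 4 hearts on both arrays, 7 by at least 2-fold. Of all compared genes 21.6% did, and 1.41% by at least 2-fold. The summed level of the 10 was 4067 with IGFBP3 and 5686 without, against 1270 in Id cKO, 1184 and 1081 in Id control, and 950.1 in WT. Sums of fibroblast markers were 13380 and 14040 on the pair, against 4927 to 10010 in the other hearts. Those of macrophage markers were 3107 and 4111 on the pair, against 1671 to 2153. By gene, only 4 of 10 fibroblast and 6 of 10 macrophage markers lay above all other hearts on both arrays. The part of handling and of cell makeup in the Hspa1a difference was not tested.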

How the data were processed

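The deposited table holds a log2 value for each probe set on each array, which the authors made with Affymetrix Expression Console and RMA, per the submitters' processing notes. RMA corrects background, normalizes the arrays it is given together and summarises the probes of a set, and it is not stated whether the incubated pair was run with the others. Neither version is stated. How many arrays there are limits the precision. Gene symbols came from GEO's platform annotation: 21789 of 35557 carried 1 symbol, 1621 several and 12147 none, and only the first kind was used. Where a gene had several, the brightest on average over all arrays stood for it, as for 5 of the genes described. A gene entered a comparison if either group averaged at least 6 (on the quantile-normalized scale for the incubated pair). Against Id control, a gene counted as apart only if it was so from both arrays in the same direction. The 2-fold limit is that of the study's design text. limma (version 3.58.1, R 4.3.3) was fitted over 6 arrays in 5 groups with Benjamini-Hochberg adjustment over all compared genes, and tested on simulated data. Lone arrays were compared by size only. The members and lists were chosen with earlier results of these data known. All members could be named, and of the wider lists the members 2-fold apart, at most 4 per list and comparison. Eif2ak2 was named beyond that limit, as the 1 lower gene of its list. Promoter motifs were counted in RefSeq windows of GRCm38.p6. No label states that samples were separate animals, though the 2 Id control arrays carry different genotypes. The p-values rest on the spread between these 2 arrays, which also differ in date code. That spread thus holds genotype and date code along with any technical part. Summed marker levels add the linear values of a list's genes. Alternatives were quantile normalization, median centring, cyclic loess, other minimum levels, averaged probe sets and leaving out an Id control array.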

Additional observations from a re-analysis of the deposited data

How the results depend on the processing

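Of 128 recomputed counts and branch medians, 118 stayed within 1.5 times the count or within the median SD of a branch's genes between the Id control arrays. With a minimum level of 8, which leaves 5 ATF4 branch genes or fewer, the ATF4 median was 0.97 for Id cKO against WT, 0.60 for Id control against WT, -0.50 for IGFBP3-treated against untreated and 0.32 for the untreated incubated heart against Id cKO. The heat-shock median of Id cKO against Id control was 0.0461 with that minimum, and 0.35 with all probe sets of a gene averaged. Without Id control replicate 1, which leaves the array of the shared date code, 2 genes were 2-fold apart from WT and 1 gene was from Id cKO. Without replicate 2 these counts were 1 and 1. The heat-shock median of Id cKO against Id control lay between 0.0596 and 0.29 in these fits, the ATF4 median between 0.13 and 0.36, and the endoplasmic reticulum median between -0.33 and -0.16. The cause of these shifts was not tested, apart from the smaller number of genes or arrays. limma could not be fitted without an Id control array, since no residual degrees of freedom are left. In the limma settings run, 0 members passed an adjusted p of 0.05. For Slc7a5 between Id cKO and Id control the adjusted p in limma ranged from 0.147 to 0.304, and for Herpud1 from 0.152 to 0.283. Of 133 recomputed values of single genes, 127 moved by less than their SD between the Id control arrays and 0 changed sign. No paired analysis was possible because the labels give no replicate numbers.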

Other observations

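Genes outside the 3 branches stood beside Hspa1a at the top of the difference between the incubated pair and the other hearts. By the mean difference after quantile normalization, Il6 (7.10), Ptgs2 (5.29), Usp17ld (5.16) and Cxcl5 (4.65) ranked above it, and Thbs1 (3.70) and Tnfaip6 (3.59) followed. These include an interleukin, a prostaglandin synthase and a chemokine. For Il6 the lower array of the pair lay 6.72 above the highest of the other 4 hearts.

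The 3 probe sets annotated to Hspa8 did not give the same picture. The one used, which has the highest mean, was 0.03 lower in Id control 1 than in Id control 2. Probe set 10584572 differed by 1.03 between Id control 1 (12.26) and 2 (11.23), while Id cKO (12.72) and WT (12.64) lay close together on it. Hspa8 has near-identical copies, so which transcripts each probe set reads is uncertain. The 2 probe sets of Slc38a1 had the same order over Id cKO, Id control and WT, with differences of 2.08 and 1.59 for Id cKO minus WT. The 2 probe sets of Hspb1 gave 0.36 and 0.43 there.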
